A study of Homo sapiens with 21 samples.

Results

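Here 2 treatments of 1 human melanoma line are set directly against each other: TP-472, which blocks the bromodomains of the SWI/SNF proteins BRD9 and BRD7, and JQ-1, which blocks those of the BET proteins. The members are the 3 libraries labelled TP-472 and the 3 labelled JQ-1, chosen by those labels alone, 6 of the 21 libraries of the series. The series profiled poly-A selected RNA of SK-MEL-147 cells, an established melanoma line, in 7 groups of 3 libraries, namely untreated cells and 6 compounds that act on epigenetic regulators. All 6 libraries compared here come from this line and differ, per the labels, only in the compound. Doses, exposure times and any vehicle were not given in the sources used here, so the contrast is between the treatments as they were applied. The design text calls the replicates biological but does not say that they came from separate cultures, so the p-values below reflect the scatter among these libraries alone, and that scatter may be technical. In bulk RNA, fewer cells of a type and less RNA per cell cannot be told apart.

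Bromodomains are protein modules that bind acetylated lysines, chiefly on histone tails. The BET family, which includes BRD2, BRD3 and the testis protein BRDT, uses them to hold on to acetylated promoters and enhancers and to bring in P-TEFb, the kinase complex that releases paused RNA polymerase II. BRD9 and BRD7 sit instead in SWI/SNF chromatin remodelling complexes, BRD9 in the non-canonical form and BRD7 in the form that carries PBRM1. Displacing BET proteins is known to lower many inducible, enhancer-driven genes, among them cytokine genes, while P-TEFb released from its inhibitor HEXIM1 raises others.

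Summed expected counts (the read numbers that the program RSEM assigns to each gene) ran from 36983672 to 47025796 in the TP-472 libraries and from 31635497 to 38307922 in the JQ-1 libraries, with 6.0 to 9.61% of them on ribosomal RNA genes. Of 26475 genes, 14444 had enough counts in the 6 libraries to be tested. The spread between replicates was small, with a common biological coefficient of variation of 3.57% for TP-472 and 3.18% for JQ-1, and the first principal component, with 86.4% of the variance, separated the 2 treatments. Levels below are in CPM, counts scaled to a common library size, after TMM scaling, a method that equalises the bulk of genes between libraries. Each fold change is on the log2 scale, TP-472 minus JQ-1, with its standard error (SE) from edgeR's quasi-likelihood fit, so a value above 0 means higher with TP-472, with n = 3 libraries in each group throughout. Genes with an adjusted p under 0.05 (Benjamini-Hochberg over all 14444) are called higher or lower.

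The 2 treatments left most genes at different levels. In all, 11153 genes were called (77.2%), 5602 of them higher with TP-472 (38.8%) and 5551 lower (38.4%). Large differences were uneven: 1754 genes (12.1%) were called and at least 2-fold higher with TP-472 against 897 (6.21%) at least 2-fold lower, and 607 (4.2%) against 116 (0.803%) at 4-fold. The libraries of the 2 groups did not overlap for 11340 genes (78.5%), with TP-472 above JQ-1 in 39.5% and below it in 39% of all genes. With so high a share called, a count of called genes in any list says little unless its direction or size departs from these shares. The gene lists used below were written with earlier results of these data known. Their counts are therefore descriptions set beside these shares, and not tests. Genes at least 2-fold higher with TP-472 had a median level of 5.29 CPM with TP-472 and 1.38 CPM with JQ-1, while those at least 2-fold lower had medians of 2.30 and 6.66 CPM. In the untreated libraries, which were left out of the main fit, the medians of these 2 sets were 5.17 and 2.25 CPM, near the TP-472 medians. A further 2736 genes (18.9%) had a 95% interval that lay wholly inside a 1.2-fold difference either way.

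**Figure D1:**
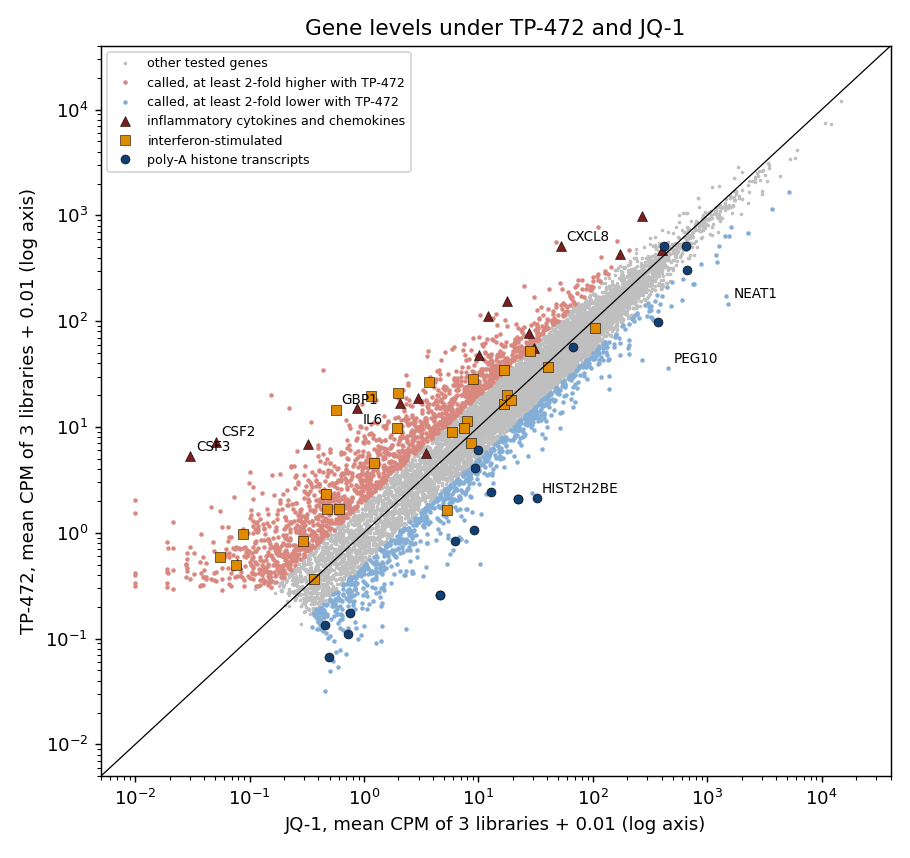
Mean level of each of the 14444 tested genes in the 3 JQ-1 libraries (horizontal) and the 3 TP-472 libraries (vertical), in CPM plus 0.01 on log axes, with the line of equal levels. Triangles (cytokines) lie above the line, most squares (interferon-stimulated genes) lie above it, and all but 1 of the circles (histone transcripts) lie below it.

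Examples of equal level came from unrelated functions. RPL6, a ribosomal protein, stood at 1652, 1699 and 1771 CPM with TP-472 and 1721, 1707 and 1685 CPM with JQ-1. The values of the groups overlap, with a difference of 0.0023 ± 0.029 and a 95% interval from -0.059 to 0.063. The alcohol dehydrogenase ADH5 stood at 188, 185 and 191 CPM against 186, 188 and 189 CPM. CNBP, SSH1 and EFTUD2 were also among the genes with the narrowest intervals about 0. These equalities rest on the scaling: when libraries were scaled by their total counts instead, the median of all genes moved from -0.0045 to 0.13, and differences of that size or smaller lost or changed their direction (EFTUD2 read 0.14). Changes are therefore reported relative to the bulk of genes.

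Among the target genes described here, BRD9, BRD7 and BRD3 differed little in transcript level and BRD2 differed clearly. BRD9 stood at 131, 131 and 133 CPM with TP-472 and 136, 141 and 138 CPM with JQ-1, a difference of -0.065 ± 0.029 (SE) that missed the threshold (edgeR adjusted p = 0.052). It passed in some other fits, at -0.080 with the GC trend removed (edgeR adjusted p = 0.012). BRD7 stood at 127, 127 and 132 CPM and 129, 123.4 and 121 CPM, also short of it (0.045 ± 0.033, edgeR adjusted p = 0.22). The 95% intervals, from -0.13 to -0.0033 for BRD9 and from -0.025 to 0.11 for BRD7, exclude a 1.2-fold difference either way. BRD3 was lower with TP-472 by a small amount (-0.19 ± 0.031). BRD2 stood at 245, 256 and 253 CPM with TP-472 and 606, 626 and 620.3 CPM with JQ-1, 2.46-fold apart (-1.3 ± 0.029, edgeR adjusted p = 4.3e-17). BRDT had no count in any of the 6 libraries. Exons of BRD2, BRD9 and BRD7 overlap those of a neighbouring gene on the other strand (HLA-DMA, TRIP13 and ADCY7), those of BRD9 also ZDHHC11 on its own strand, and the strand setting of the counting was not given in the sources used here.

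Genes of the elongation machinery were lower with TP-472 at the top of the list and close to equal further down. Of 24 tested genes for BET proteins and P-TEFb, 14 were lower and 6 higher, where 38.4% and 38.8% of all genes were. The median was -0.21 against -0.0045 over all genes. POLR2A, which encodes the catalytic chain RPB1 of RNA polymerase II, stood at 135, 143 and 138 CPM with TP-472 and 472.4, 493 and 482 CPM with JQ-1 (-1.8 ± 0.031, edgeR adjusted p = 1.6e-18). HEXIM1, the inhibitor that holds P-TEFb inactive, stood at 60.8, 59.9 and 59 CPM against 210.5, 198 and 209 CPM (-1.78 ± 0.034, edgeR adjusted p = 5e-18). For both genes each JQ-1 library was over 3-fold above every TP-472 library, and the untreated libraries (60.5, 65.2 and 62.5 CPM for HEXIM1) stood at the TP-472 level. The super elongation complex scaffolds AFF1 (-0.82 ± 0.039) and AFF4 (-0.62 ± 0.037) and the elongation factor SUPT5H (-0.46 ± 0.029) were also lower with TP-472. CDK9, the kinase of P-TEFb, was lower by less, with -0.31 ± 0.044. HEXIM2 (0.45 ± 0.13), NELFE (0.27 ± 0.041) and ELL (0.26 ± 0.055) went the other way, and CDK13 did not pass (-0.029 ± 0.036, reading 0.11 under total-count scaling).

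SWI/SNF subunits split evenly. Of 28 tested, 11 were higher with TP-472, 10 lower and 7 did not pass. These counts were near the 38.8% and 38.4% of all genes, and the median was 0.037. PBRM1, the subunit that shares a complex with BRD7, was lower, at 57.4, 55.3 and 52.9 CPM with TP-472 against 113, 111 and 109 CPM with JQ-1 (-1.01 ± 0.036, edgeR adjusted p = 2.1e-14), and was the only member past 2-fold. DPF3, a reader subunit, was lower too (-0.90 ± 0.053), while SMARCD3 (0.94 ± 0.11) and GLTSCR1L (BICRAL), a subunit of the BRD9 complex (0.90 ± 0.082), were higher. Its relative GLTSCR1 (BICRA) did not pass (19.5, 19.1 and 17.7 against 18.6, 18.4 and 19.5 CPM).

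**Figure D2:**
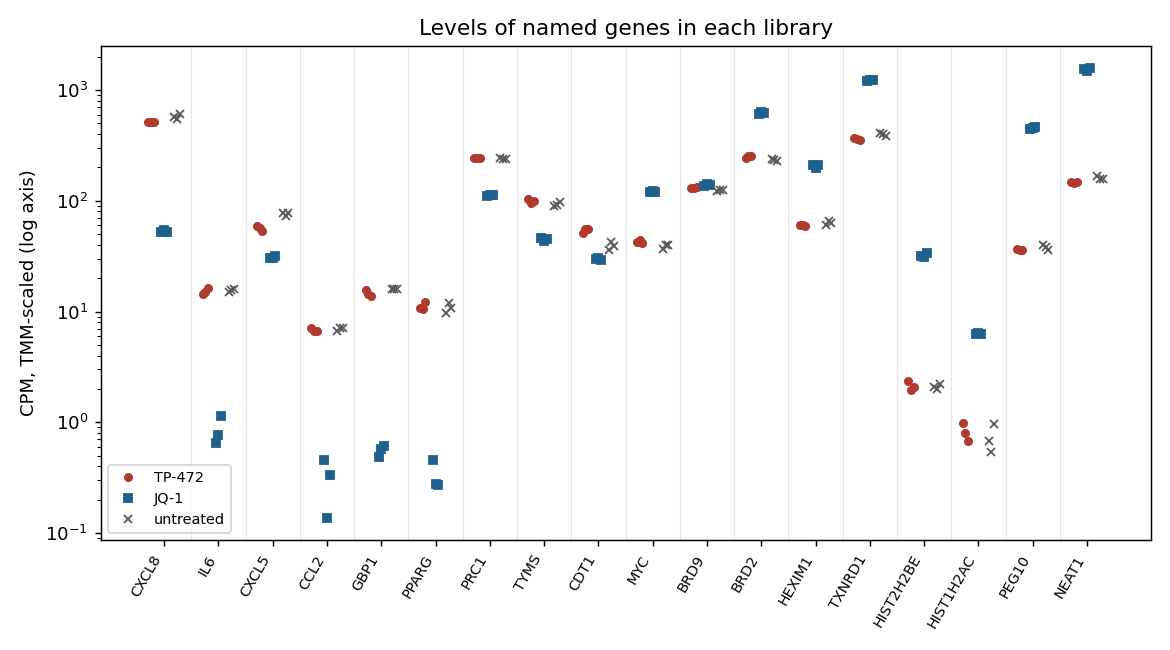
Level of 18 named genes in each library, in CPM on a log axis, with TP-472 as circles, JQ-1 as squares and untreated cells as crosses. The TP-472 and untreated libraries lie close together for most of these genes, while the JQ-1 libraries lie below them for CXCL8, IL6, CCL2, GBP1 and PPARG and above them for BRD2, HEXIM1, the histone genes, PEG10 and NEAT1.

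Cytokine and chemokine genes were higher with TP-472 throughout. All 17 tested members of the list were called higher, 14 of them at least 2-fold, where 38.8% and 12.1% of all genes were, and their median was 2.79. Another 8 members had too few counts to be tested. CXCL8, which attracts neutrophils, stood at 514, 509 and 513 CPM with TP-472 and 51.9, 54 and 52.2 CPM with JQ-1 (3.28 ± 0.031, edgeR adjusted p = 4.3e-22). The groups lie 9.71-fold apart with almost no spread within either, and the untreated libraries read 568, 544 and 601 CPM. IL6, which signals through gp130, stood at 14.4, 15 and 16.2 CPM against 0.648, 0.771 and 1.15 CPM (4.18 ± 0.13, edgeR adjusted p = 5.2e-15). The monocyte attractant CCL2 stood at 7.16, 6.74 and 6.67 CPM against 0.459, 0.138 and 0.337 CPM (4.45 ± 0.21, edgeR adjusted p = 1.1e-12). Every TP-472 library was above every JQ-1 library for all 3 genes.

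The colony-stimulating factor genes came close to the detection limit with JQ-1. CSF3, the granulocyte factor, stood at 5.23, 5.77 and 4.89 CPM with TP-472 and 0, 0.0275 and 0.0337 CPM with JQ-1, 680 summed counts against 2. That ratio is 275-fold with a 95% counting interval from 75.8 to 2273 (exact binomial, counting error only). CSF2, the granulocyte and macrophage factor, stood at 7.62, 7.47 and 6.67 CPM against 0.0270, 0.0275 and 0.0675 CPM, 927 counts against 4, a ratio of 187-fold with an interval from 72.9 to 689. The fitted values were 7.87 ± 0.33 for CSF3 and 7.43 ± 0.25 for CSF2. Both genes passed the count filter through the TP-472 libraries alone.

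Abundant interleukins were also lower with JQ-1, though by less. IL1B, a central fever cytokine, stood at 969, 993 and 998 CPM with TP-472 and 273, 271 and 258 CPM with JQ-1 (1.88 ± 0.03), and its neighbour IL1A at 158, 155 and 155 CPM against 18.4, 16.5 and 18.6 CPM (3.13 ± 0.042). LIF (1.33 ± 0.028) and IL11 (1.49 ± 0.043), ligands of gp130 receptors like IL6, were nearer to each other between the groups. IL24 was the member with the smallest difference, 461, 473 and 478 CPM against 411, 409 and 395 CPM (0.22 ± 0.028), with no overlap between the groups. Among the CXC chemokines the difference was graded: CXCL1 (3.21 ± 0.057) and CXCL2 (3.01 ± 0.10) were near CXCL8, whereas CXCL5 (59, 57.2 and 52.8 against 30.1, 30.2 and 31.4 CPM, 0.88 ± 0.046) and CXCL3 (0.71 ± 0.14) differed by under 2-fold. CXCL1, CXCL2, CXCL3 and CXCL5 have fractional expected counts, which arise where reads are shared between similar genes, so the split between these copies is uncertain.

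Promoters of 4 of these genes show a match to the kB motif, searched as GGANTTTCC on both strands, between 72 and 91 bases before the start site in genes whose difference was large (CXCL8, CXCL1, IL6) and in one whose difference was small (CXCL5). The sequences are from RefSeq's table for GRCh38.p14, read 5′ to 3′ on the gene's strand from 120 bases before the start to the last base before it, with that match in capitals and matches to other motifs left unmarked.
CXCL8 (chr4:73740449-73740568, forward strand): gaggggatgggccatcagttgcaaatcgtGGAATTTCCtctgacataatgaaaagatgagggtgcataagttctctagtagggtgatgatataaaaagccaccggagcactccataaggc
CXCL1 (chr4:73869273-73869392, forward strand): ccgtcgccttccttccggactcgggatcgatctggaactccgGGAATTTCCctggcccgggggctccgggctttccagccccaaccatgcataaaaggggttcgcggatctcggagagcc
CXCL5 (chr4:73998678-73998797, reverse strand): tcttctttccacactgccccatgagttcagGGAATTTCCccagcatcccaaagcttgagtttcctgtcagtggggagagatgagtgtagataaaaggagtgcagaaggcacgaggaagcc
IL6 (chr7:22727080-22727199, forward strand): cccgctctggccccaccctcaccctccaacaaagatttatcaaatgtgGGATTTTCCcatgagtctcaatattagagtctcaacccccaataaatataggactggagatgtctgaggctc
The match begins 91 bases before the start in CXCL8, 78 in CXCL1, 90 in CXCL5 and 72 in IL6. Promoters were found for 13 of the 17 tested cytokine genes, and 7 of the 13 held a match. Since under 80% of the list had a promoter in the table, its share is void as a comparison with the 1.64% of all 27305 promoter windows of 300 bases (250 before the start, 50 after) that hold the motif. A match is a run of letters and not a measured binding site.

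Genes for NF-kB subunits and their feedback were mostly higher with TP-472, 16 of 22, with 4 lower and a median of 0.77. Among all genes, 38.8% were higher and 38.4% lower. TRAF1, a signalling adaptor, stood at 15.8, 16.8 and 16.9 CPM with TP-472 and 2.32, 2.26 and 2.33 CPM with JQ-1 (2.84 ± 0.089, edgeR adjusted p = 3.9e-15). TNFAIP2, a TNF-induced gene, stood at 56.1, 61.5 and 58.6 CPM against 10.5, 11.8 and 10.3 CPM (2.43 ± 0.056). The adhesion receptor ICAM1 (2.45 ± 0.23) and the kinase IRAK2 of the interleukin-1 receptor pathway (1.74 ± 0.049) were higher as well. Among the subunits the precursors NFKB1 (1.67 ± 0.039) and NFKB2 (0.97 ± 0.031) and the partner RELB (0.95 ± 0.044) were higher, the inhibitor NFKBIA likewise (1.49 ± 0.044), REL was lower (8.69, 7.23 and 7.68 against 10.1, 10.1 and 10.2 CPM, -0.37 ± 0.084), and RELA did not pass (-0.03 ± 0.033, reading 0.11 under total-count scaling). The kinase gene CHUK (-0.19 ± 0.042) and the regulatory subunit gene IKBKG (-0.26 ± 0.044) were slightly lower with TP-472. IKBKG has fractional counts, and its exons overlap another gene on the other strand. The kB letters occur in 6 of the 19 promoters found for this list (31.6%), against the 1.64% of all windows, and the 6 genes with them ranged from -0.37 (REL) to 2.45 (ICAM1).

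Interferon-stimulated genes were higher with TP-472 in 20 of 27 tested cases, 15 of them at least 2-fold, with 4 lower and a median of 1.49. Over all genes, 38.8% were higher, 12.1% at least 2-fold higher and 38.4% lower. GBP1, a guanylate-binding GTPase of cell-autonomous defence, stood at 15.6, 14.3 and 13.8 CPM with TP-472 and 0.486, 0.579 and 0.607 CPM with JQ-1 (4.71 ± 0.13, edgeR adjusted p = 6e-16). TRIM22, an antiviral ubiquitin ligase, stood at 19.4, 19.7 and 19.8 CPM against 1.13, 1.46 and 0.844 CPM (4.07 ± 0.11, edgeR adjusted p = 8.7e-16). OAS3, which makes the activator of RNase L, stood at 21.7, 20.6 and 21.2 CPM against 1.94, 1.87 and 2.06 CPM (3.43 ± 0.086), and the exonuclease ISG20 was higher as well (2.86 ± 0.10). The 2 groups lie far apart for each of these, while a regulator of the response lay on the other side. IRF7, a factor that drives interferon genes, was lower with TP-472 (1.71, 1.55 and 1.68 against 5.21, 5.54 and 5.20 CPM, -1.69 ± 0.13). IFI6 was slightly lower (-0.29 ± 0.083, reading -0.15 with edgeR adjusted p = 0.12 under total-count scaling). ISG15, a ubiquitin-like modifier, read 15.3, 16 and 18 CPM and 16.8, 16.8 and 16.6 CPM and did not pass (-0.029 ± 0.066, edgeR adjusted p = 0.7). GBP1 has fractional counts, since it shares sequence with other members of its family.

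The core of the interferon response element, spelled TTTC, any 2 letters and TTTC again, occurs on either strand upstream of GBP1, IFIT3 and OAS3, which differed between the groups, and of ISG15, which did not pass. These 4 stretches, ending at the last base before the start, are shown for that contrast, with the matches in capitals (overlapping matches run together).
GBP1 (chr1:89065209-89065358, reverse strand): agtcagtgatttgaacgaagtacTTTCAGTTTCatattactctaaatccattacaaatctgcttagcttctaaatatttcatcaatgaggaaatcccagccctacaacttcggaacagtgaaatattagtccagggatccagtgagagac
IFIT3 (chr10:89327827-89327996, forward strand): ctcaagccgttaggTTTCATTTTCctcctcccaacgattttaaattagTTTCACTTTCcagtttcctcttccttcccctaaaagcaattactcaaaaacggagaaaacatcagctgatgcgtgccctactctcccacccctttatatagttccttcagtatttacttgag
OAS3 (chr12:112938314-112938473, forward strand): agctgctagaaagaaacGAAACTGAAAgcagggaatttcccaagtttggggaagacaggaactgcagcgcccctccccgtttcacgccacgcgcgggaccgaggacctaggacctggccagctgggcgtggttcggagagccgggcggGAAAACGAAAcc
ISG15 (chr1:1013367-1013496, forward strand): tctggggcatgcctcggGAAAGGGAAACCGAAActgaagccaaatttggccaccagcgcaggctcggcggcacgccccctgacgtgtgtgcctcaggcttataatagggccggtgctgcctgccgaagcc
IFIT3, an antiviral RNA-binding protein, stood at 5.02, 3.98 and 4.55 CPM with TP-472 and 1.38, 0.937 and 1.32 CPM with JQ-1 (1.9 ± 0.17), while ISG15 with 2 matches close to each other had the same level in both groups within the spread. Promoters were found for 19 of the 27 tested genes, and 13 of the 19 held the letters, with fold changes from -0.29 (IFI6) to 4.71 (GBP1). Again under 80% of the list had a promoter, so the share is void as a comparison with the 3.65% of all windows.

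Class I antigen processing followed in part. Of 19 tested genes 14 were higher with TP-472, 1 lower and 4 did not pass, with a median of 0.62. For comparison, 38.8% of all genes were higher and 38.4% lower. The peptide-trimming enzyme ERAP2 stood at 42.9, 44.3 and 43.5 CPM with TP-472 and 9.07, 10.8 and 9.35 CPM with JQ-1 (2.16 ± 0.059), the immunoproteasome subunit PSMB8 at 60.2, 61.3 and 64.8 CPM against 20, 22.3 and 20.5 CPM (1.56 ± 0.048), and NLRC5, the activator of class I genes, at 28.2, 27.7 and 27.3 CPM against 11.5, 12.4 and 13.6 CPM (1.16 ± 0.061). The transporter TAP1 was higher too (0.62 ± 0.036). Class I molecules differed by unequal amounts. HLA-F stood at 39.6, 41.2 and 43.3 CPM against 14.1, 11.8 and 13.4 CPM (1.66 ± 0.061), while HLA-B read 0.54 ± 0.033, HLA-C 0.28 ± 0.027 and HLA-E 0.19 ± 0.029, and their shared light chain B2M stood at 1218, 1184 and 1237 CPM against 1202, 1169 and 1195 CPM (0.029 ± 0.027). The chaperone CANX did not pass, and PDIA3 was lower by -0.12 but read 0.018 under total-count scaling. The HLA genes and TAP1 have fractional counts.

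Histone transcripts showed the opposite pattern, with the lowest median of the 37 lists. Replication-dependent histone messages normally lack a poly-A tail, so poly-A selected RNA captures only their tailed forms. Of 19 tested genes 18 were lower with TP-472, 15 of them at least 2-fold, where 38.4% and 6.21% of all genes were, and the median was -2.42. HIST2H2BE, an H2B gene, stood at 2.35, 1.96 and 2.07 CPM with TP-472 and 32, 31.2 and 33.6 CPM with JQ-1 (-3.93 ± 0.08, edgeR adjusted p = 1.5e-17). HIST2H2AA3 and its copy HIST2H2AA4 each stood at 2.07, 1.98 and 2.15 CPM against 23.2, 20.9 and 22.6 CPM (-3.43 ± 0.087), and HIST2H4A and HIST2H4B likewise share 1 set of values (-4.17 ± 0.23). In each pair the reads were divided evenly between identical copies, so a pair counts as 1 measurement. The counts of 19, 18 and 15 genes above, and the median, include both copies. HIST1H2AC, an H2A gene on chromosome 6 with whole counts, stood at 0.994, 0.807 and 0.673 CPM against 6.32, 6.34 and 6.24 CPM (-2.93 ± 0.15, edgeR adjusted p = 4.6e-12). The untreated libraries read 2.08, 1.98 and 2.24 CPM for HIST2H2BE and 0.679, 0.543 and 0.959 CPM for HIST1H2AC, beside the TP-472 libraries and far below the JQ-1 libraries. H2AFZ, the replication-independent variant H2A.Z, was the only member higher with TP-472 (518, 503 and 521 against 427, 411 and 428 CPM, 0.28 ± 0.029), and H2AFX was lower by little (-0.24 ± 0.043).

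The promoters of 3 lower members and of H2AFZ are shown with matches to the octamer ATTTGCAT, the CCAAT box and the TATAAA box, on either strand, in capitals.
HIST2H2BE (chr1:149886683-149886792, reverse strand): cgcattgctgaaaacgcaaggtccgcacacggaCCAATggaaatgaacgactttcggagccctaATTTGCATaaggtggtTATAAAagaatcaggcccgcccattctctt
HIST1H2AC (chr6:26124032-26124171, forward strand): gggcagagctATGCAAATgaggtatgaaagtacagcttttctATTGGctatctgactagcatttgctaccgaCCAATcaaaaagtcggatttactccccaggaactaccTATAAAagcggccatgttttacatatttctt
HIST2H2AA3 (chr1:149842751-149842860, reverse strand): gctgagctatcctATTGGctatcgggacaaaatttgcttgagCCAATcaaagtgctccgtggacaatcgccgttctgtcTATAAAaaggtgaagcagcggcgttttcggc
H2AFZ (chr4:99950276-99950405, reverse strand): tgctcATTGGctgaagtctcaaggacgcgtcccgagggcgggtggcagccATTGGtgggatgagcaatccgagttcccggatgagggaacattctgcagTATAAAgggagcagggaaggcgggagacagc
HIST2H2BE has all 3 motifs in this stretch, with the octamer beginning 46 bases before the start, and HIST1H2AC has them with the octamer on the other strand. HIST2H2AA3 and H2AFZ have CCAAT and TATAAA letters and no octamer in this stretch. Promoters were found for 18 of the 19 genes: 7 held the octamer (38.9%, against 1.8% of all windows), 13 held TATAAA (72.2% against 12%) and 15 held CCAAT (83.3% against 35.7%). The 7 genes with an octamer ranged from -3.93 to -0.33 (H3F3B, a replication-independent H3 gene).

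**Figure D3:**
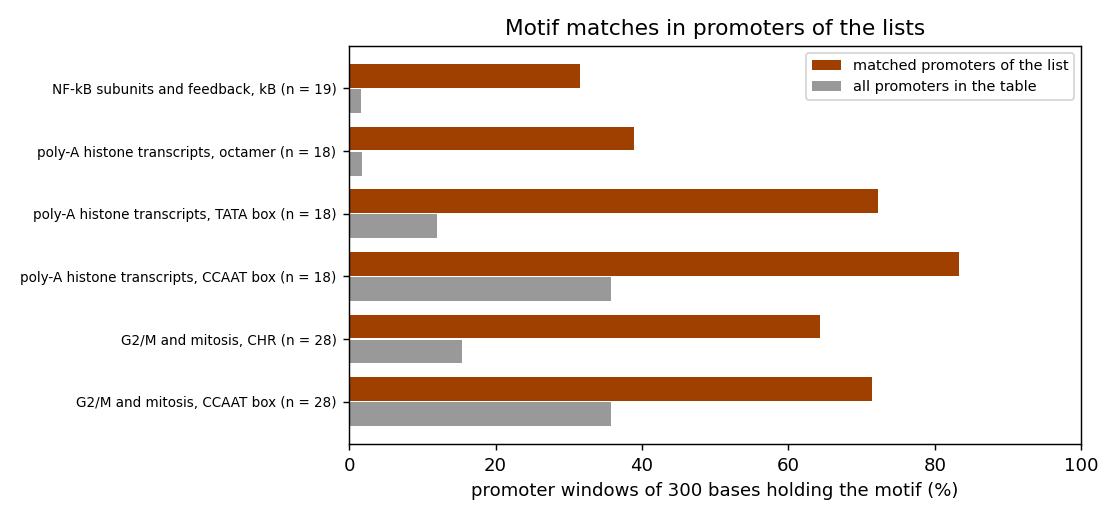
Share of promoter windows that hold a motif on either strand, for 6 pairs of a list and a motif picked because the motif is known for such genes, in lists with a promoter for at least 80% of their tested genes (n is the number of promoters), beside the share over all 27305 windows of the table. The list's share is above that of all windows in these 6 pairs, from 31.6% against 1.64% for the kB motif to 83.3% against 35.7% for the CCAAT box in histone promoters, while pairs not shown can lie below it (the CCAAT box in 10.5% of the NF-kB list's promoters).

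DNA replication and G1/S genes were higher with TP-472 almost without exception, 36 of 38 tested, 10 of them at least 2-fold. Their median was 0.76, and 38.8% of all genes were higher, 12.1% at least 2-fold. E2F2, an activator of S-phase genes, stood at 3.82, 3.83 and 4.09 CPM with TP-472 and 0.351, 0.551 and 0.270 CPM with JQ-1 (3.29 ± 0.22, edgeR adjusted p = 1.5e-10). CDC45, part of the replicative helicase, stood at 23.7, 24 and 25.8 CPM against 8.86, 7.82 and 8.57 CPM (1.54 ± 0.068), and CDC25A, the phosphatase that activates CDK2, at 22.8, 22 and 20.5 CPM against 8.34, 7.60 and 8.20 CPM (1.44 ± 0.07). E2F8 (2.07 ± 0.13), GINS1 (1.32 ± 0.053) and the nucleotide-making enzyme RRM2 (1.24 ± 0.029) were also higher. PCNA, the replication clamp, differed by less (161, 163 and 167 against 139, 139 and 137 CPM, 0.24 ± 0.029). The single lower member GINS4 (-0.13 ± 0.057) lost its call with DESeq2 and without JQ-1 replicate 2 or 3 or TP-472 replicate 1 or 3 (edgeR adjusted p from 0.081 to 0.22), and read 0.0087 under total-count scaling. CCND1 differed by 0.06, a call lost without JQ-1 replicate 1, 2 or 3 or TP-472 replicate 2 (edgeR adjusted p from 0.085 to 0.18). For the licensing factor CDT1 the order of the groups was TP-472 (51.1, 55.8 and 55.9 CPM), untreated (35.8, 42.1 and 39 CPM) and JQ-1 (29.7, 30.2 and 29.1 CPM), with no overlap between neighbours, and E2F1 showed that order too (79.2, 86.1 and 85.5, 64.6, 67.3 and 67.4 and 46.4, 47.3 and 47.1 CPM).

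Mitotic genes moved with them, 31 of 35 higher with TP-472, but only 3 by 2-fold or more, with a median of 0.70. Here too the shares over all genes were 38.8% higher and 12.1% at least 2-fold higher. FOXM1, the factor that drives G2 genes, stood at 120.2, 129 and 129 CPM with TP-472 and 43.3, 46.1 and 44 CPM with JQ-1 (1.5 ± 0.038, edgeR adjusted p = 2.7e-16). PRC1, which bundles the microtubules of the central spindle, stood at 243, 243 and 242 CPM against 111, 112 and 112 CPM (1.12 ± 0.028, edgeR adjusted p = 1.8e-16), values so tight that each group spans under 2 CPM. UBE2C (1.15 ± 0.034), the checkpoint kinase BUB1B (0.97 ± 0.035), and TOP2A (0.85 ± 0.03) were higher, as was the proliferation marker MKI67, which is outside the list (0.76 ± 0.031). CDC20, which activates the anaphase-promoting complex, was lower instead (155, 155 and 158 against 167, 179 and 169 CPM, -0.14 ± 0.031), a difference of -0.0033 under total-count scaling. HMMR did not pass (33.6, 29.5 and 32.8 against 30, 32.7 and 32.2 CPM, 0.012 ± 0.054).

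Cell-cycle promoters carry the CHR motif TTTGAA (mitotic genes) and E2F letters TTTCCCGC (S-phase genes), shown in capitals with CCAAT boxes for PRC1 and BUB1B, which differed, for HMMR, which did not pass, and for TYMS and GINS2 of the S-phase list.
PRC1 (chr15:90994536-90994655, reverse strand): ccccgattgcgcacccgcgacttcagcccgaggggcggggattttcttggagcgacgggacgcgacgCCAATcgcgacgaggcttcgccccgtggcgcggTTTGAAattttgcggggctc
BUB1B (chr15:40160949-40161068, forward strand): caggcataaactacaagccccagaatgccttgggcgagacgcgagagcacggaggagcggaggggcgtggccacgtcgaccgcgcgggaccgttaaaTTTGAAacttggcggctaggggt
HMMR (chr5:163460512-163460631, forward strand): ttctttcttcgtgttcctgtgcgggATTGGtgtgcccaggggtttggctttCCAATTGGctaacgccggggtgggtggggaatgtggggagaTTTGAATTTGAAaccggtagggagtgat
TYMS (chr18:657553-657652, forward strand): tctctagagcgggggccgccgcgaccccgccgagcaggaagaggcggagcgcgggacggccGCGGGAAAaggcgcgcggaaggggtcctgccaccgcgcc
GINS2 (chr16:85688955-85689054, reverse strand): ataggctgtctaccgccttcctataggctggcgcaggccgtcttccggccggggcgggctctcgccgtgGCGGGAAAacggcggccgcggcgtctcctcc
HMMR has 2 adjacent CHR matches and 3 CCAAT matches in this stretch and still read the same in both groups within the spread. TYMS, which makes thymidylate, stood at 104, 96.3 and 100.1 CPM with TP-472 and 46.4, 43.6 and 44.9 CPM with JQ-1 (1.15 ± 0.039), and GINS2 of the replicative helicase at 16.9, 18.2 and 19.2 CPM against 9.53, 8.62 and 7.96 CPM (1.05 ± 0.077). Of the 28 mitotic promoters found (for 35 genes), 18 held TTTGAA (64.3%, against 15.4% of all windows) and 20 held CCAAT (71.4%). The 18 genes with TTTGAA ranged from -0.14 to 1.12. For the S-phase list 10 of the 30 promoters found held the E2F letters, too few found of 38 genes for a comparison with the 1.66% of all windows.

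Cell cycle inhibitors went both ways, 8 of 13 higher and 5 lower with TP-472, none past 2-fold. Of all genes, 38.8% were higher and 38.4% lower. CDKN2A, which encodes p16 and p14ARF, stood at 330.0, 328 and 343 CPM with TP-472 and 165, 173 and 179.6 CPM with JQ-1 (0.95 ± 0.033). CDKN1C, which encodes p57, was higher as well (0.79 ± 0.06). The stress-induced GADD45A (381, 399.7 and 399 against 694, 683 and 722 CPM, -0.83 ± 0.031) and GADD45B (-0.70 ± 0.032) were lower, and RB1 was lower by -0.087, a call lost with DESeq2 and without any single library but JQ-1 replicate 3 (edgeR adjusted p from 0.053 to 0.25), with a value of 0.052 under total-count scaling. The p21 gene CDKN1A differed by 0.17.

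MYC itself was higher with JQ-1 in this line. It stood at 42.3, 43.9 and 41.6 CPM with TP-472 and 121, 123.3 and 120.4 CPM with JQ-1 (-1.51 ± 0.034, edgeR adjusted p = 6.1e-17), and the untreated libraries read 36.9, 39.7 and 39.6 CPM. In the MYC and MAX network 6 of 11 tested genes were lower with TP-472 and 1 higher, with a median of -0.52. MLXIP, a glucose-responsive partner (-0.83 ± 0.039), and the MAX-binding repressors MXD4 (-0.79 ± 0.039) and MXD1 (-0.54 ± 0.063) were lower, and MLX was higher (0.27 ± 0.043). Ribosome biogenesis genes, many of which MYC is known to drive, did not lean either way, with 16 of 34 higher, 14 lower and a median of 0.018. Over all genes the shares were 38.8% higher and 38.4% lower. Within that list GAR1, a protein of pseudouridylation particles, was higher with TP-472 (31.1, 29.5 and 30.4 against 14.2, 13.3 and 15.9 CPM, 1.07 ± 0.061) and BOP1, needed for the large ribosomal subunit, was lower (54.2, 51.7 and 55.4 against 79.7, 87.8 and 83.6 CPM, -0.64 ± 0.041).

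**Figure D4:**
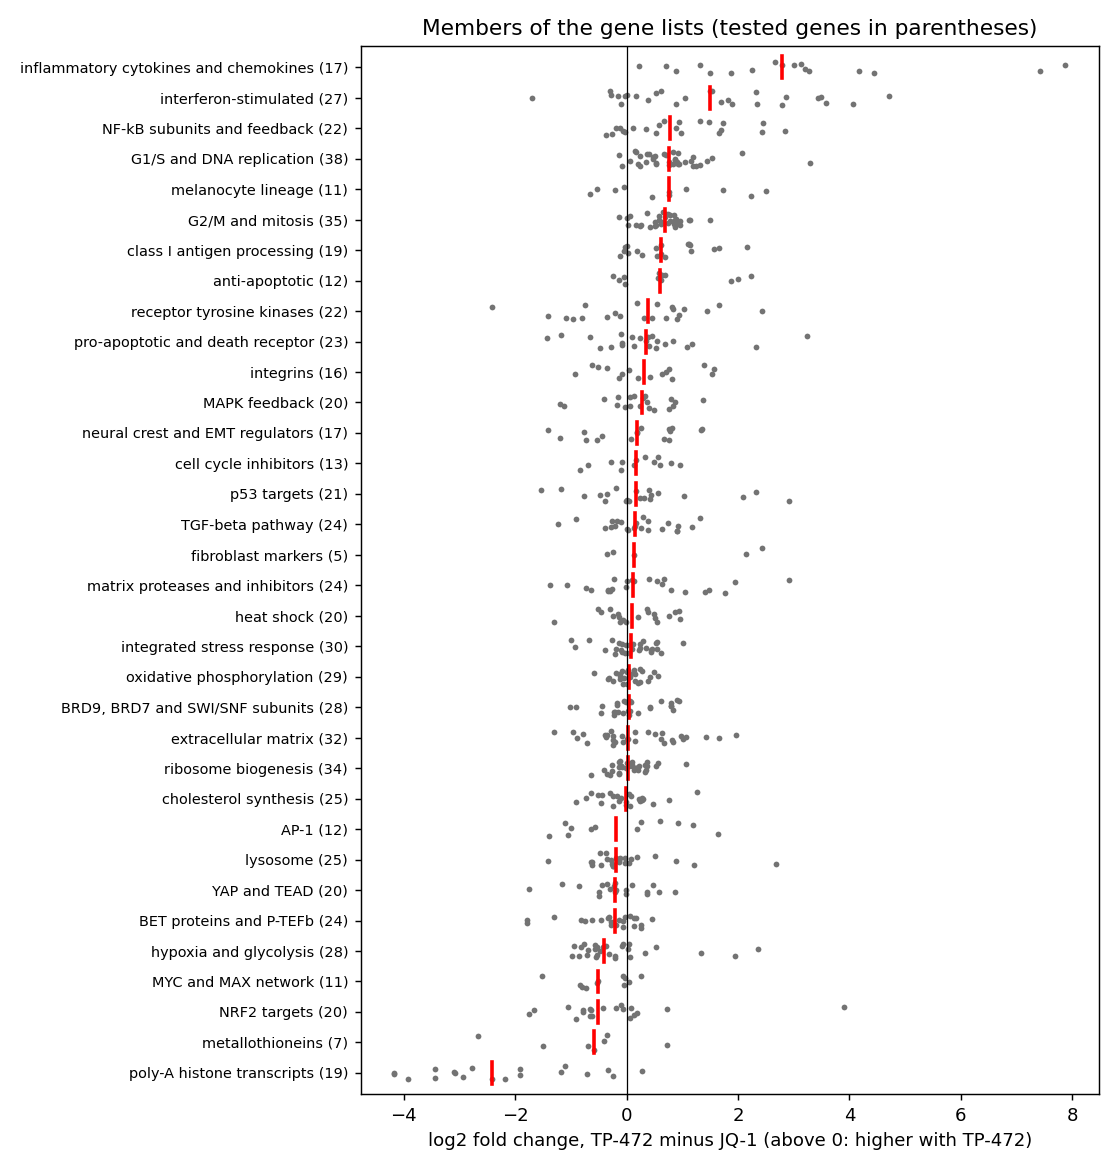
Log2 fold change (TP-472 minus JQ-1) of each tested member of the 34 gene lists with at least 5 tested members, with the list's median as a red bar. Medians run from -2.42 for histone transcripts to 2.79 for cytokines, and most lists hold members on both sides of 0.

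In the anti-apoptotic list 8 of 12 genes were higher with TP-472, 3 of them at least 2-fold, and 2 lower. The shares over all genes were 38.8% higher, 12.1% at least 2-fold higher and 38.4% lower. BIRC3, which encodes an inhibitor of apoptosis protein, stood at 49.5, 45 and 44.3 CPM with TP-472 and 12.5, 12.9 and 12.2 CPM with JQ-1 (1.88 ± 0.055, edgeR adjusted p = 1.7e-15). CFLAR, which blocks caspase 8, stood at 45.3, 43.5 and 43.4 CPM against 10.8, 11.3 and 11.1 CPM (1.99 ± 0.05, edgeR adjusted p = 2.1e-16), and BCL2A1 was higher as well (2.24 ± 0.12). MCL1 stood at 889, 846 and 843 CPM against 558, 562 and 569 CPM (0.61 ± 0.029) and BCL2 read 0.69 ± 0.079. BCL2L1, which encodes BCL-XL, did not pass (-0.023 ± 0.029, reading 0.12 under total-count scaling), and BIRC6 was lower (-0.25 ± 0.032). The caspase inhibitor XIAP was higher with TP-472 than with JQ-1 (0.57 ± 0.036) although its untreated level was above both (70.5, 71.8 and 69.1, 46.5, 47.2 and 48.6 and 94, 83.7 and 83.7 CPM in turn).

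Pro-apoptotic genes lay on both sides. Of 23 tested, 15 were higher with TP-472 and 6 lower, where 38.8% and 38.4% of all genes were. FAS, a death receptor, stood at 5.79, 4.98 and 5.59 CPM with TP-472 and 1.13, 0.826 and 1.32 CPM with JQ-1 (2.33 ± 0.16), and the initiator caspase CASP8 (1.17 ± 0.085) and the receptor TNFRSF10A (1.09 ± 0.11) were higher. BBC3, which encodes the BH3-only protein PUMA, stood at 29.4, 29.4 and 29.6 CPM against 66.4, 66.1 and 66.4 CPM (-1.17 ± 0.037, edgeR adjusted p = 4.7e-15), and BCL2L11, which encodes BIM, at 9.23, 9.28 and 8.59 CPM against 23, 24.7 and 25.7 CPM (-1.43 ± 0.066, edgeR adjusted p = 9.5e-13), both lower with TP-472, as was CASP9 (-0.65 ± 0.079). Exons of FAS and BCL2L11 overlap transcripts of the other strand (ACTA2 and MIR4435-2HG). The p53 target list was split as well, 11 of 21 higher and 7 lower, with a median of 0.17: AEN (1.03 ± 0.043) was higher, while TP53I3 (12.9, 12.9 and 12.8 against 36.8, 37.3 and 37.5 CPM, -1.53 ± 0.048) and TP53INP1 (-0.76 ± 0.046) were lower and ZMAT3 did not pass. MDM2, the ubiquitin ligase of p53, was higher with TP-472 (0.56 ± 0.035).

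Antioxidant genes of the NRF2 list were lower with TP-472 in 13 of 20 cases and higher in 3, with a median of -0.52. Beside them, 38.4% of all genes were lower and 38.8% higher. TXNRD1, the cytosolic thioredoxin reductase, stood at 371, 362 and 354 CPM with TP-472 and 1209, 1221 and 1222 CPM with JQ-1 (-1.75 ± 0.028, edgeR adjusted p = 7.2e-19). The iron store FTL stood at 702, 775 and 853 CPM against 1618, 1574 and 1621 CPM (-1.05 ± 0.047), OSGIN1 at 4.54, 5.47 and 5.33 CPM against 16.9, 16.6 and 15.3 CPM (-1.67 ± 0.084), and the glutathione-making GCLC read -0.90 ± 0.072. ME1 (0.72 ± 0.058) and ABCC3 (3.9 ± 0.44, on 118 counts against 6) were higher, and TXN did not pass. The upstream stretch of TXNRD1, the most different abundant member, holds the letters TGACNNNGC of the antioxidant response element, in capitals (a second match runs across the start and is not shown).
TXNRD1 (chr12:104215669-104215778, forward strand): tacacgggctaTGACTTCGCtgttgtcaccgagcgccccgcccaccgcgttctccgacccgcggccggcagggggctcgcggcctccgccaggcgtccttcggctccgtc
These letters were found in 4 of the 14 promoters matched for the list, too few matched of 20 genes to set beside the 13.6% of all windows. Metallothioneins, small metal-binding proteins, were lower in 6 of 7 cases. MT1X stood at 40.3, 43.3 and 44.3 CPM with TP-472 and 290.4, 231 and 290.5 CPM with JQ-1 (-2.66 ± 0.069, edgeR adjusted p = 3.2e-16), MT2A at 1124, 1251 and 1254 CPM against 1712, 1429 and 1684 CPM (-0.41 ± 0.053), and MT1M was higher (0.73 ± 0.19). All 7 have fractional counts, so the split between these near-copies is uncertain.

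Other stress and metabolic lists held members on both sides, as did all genes, 38.8% of them higher with TP-472 and 38.4% lower. In the integrated stress response 15 of 30 genes were higher with TP-472 and 11 lower: TRIB3 stood at 97.3, 101 and 100.1 CPM with TP-472 and 48.7, 48.5 and 51.4 CPM with JQ-1 (1.01 ± 0.036), while the factor ATF3 (-1.0 ± 0.054), the asparagine-making ASNS (234, 222 and 233 against 435, 442 and 436 CPM, -0.93 ± 0.029) and DDIT3, which encodes CHOP (-0.67 ± 0.044), were lower. Of 20 heat shock genes 10 were higher and 8 lower. The constitutive chaperone HSPA8 was higher (607, 610.3 and 623 against 315, 315 and 312 CPM, 0.97 ± 0.027) and its co-chaperone DNAJB1 lower (121, 126 and 129 against 309.7, 313 and 302 CPM, -1.3 ± 0.031). Hypoxia and glycolysis genes were lower in 18 of 28 cases with a median of -0.40, among them ADM (-0.99 ± 0.035), the glucose transporter SLC2A1 (-0.86 ± 0.029) and BNIP3 (-0.83 ± 0.034). The 3 members at least 2-fold higher were CA9, CA12 and VEGFA: carbonic anhydrase CA9 stood at 10.7, 11.4 and 13.1 CPM against 2.13, 2.37 and 2.36 CPM (2.36 ± 0.11), CA12 read 1.95 ± 0.11, and VEGFA stood at 178, 189 and 181 CPM against 72.9, 74.7 and 70 CPM (1.33 ± 0.035, edgeR adjusted p = 3.3e-16).

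Lysosomal genes were lower with TP-472 in 16 of 25 cases, with a median of -0.19, where 38.4% of all genes were lower and 38.8% higher. The sialidase NEU1 stood at 41.3, 42.1 and 44.3 CPM with TP-472 and 113, 114 and 112 CPM with JQ-1 (-1.41 ± 0.035), while the protease CTSL (0.88 ± 0.037) and the lysosomal gene regulator TFEB (1.21 ± 0.19) were higher. In cholesterol synthesis 8 of 25 were higher and 12 lower, and the median of -0.015 turned to 0.12 under total-count scaling. Lanosterol synthase LSS was lower (26.1, 27.2 and 24.4 against 47.1, 48.3 and 50.2 CPM, -0.90 ± 0.047). In oxidative phosphorylation 12 of 29 were higher and 8 lower, with no member past 2-fold, from -0.58 for SDHA to 0.56 for NDUFA9.

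Extracellular matrix genes were divided evenly, 15 of 32 higher with TP-472 and 13 lower, as were all genes (38.8% and 38.4%). The collagen cross-linking enzymes LOX (94.8, 88.1 and 90.5 against 29.2, 29.5 and 27.9 CPM, 1.66 ± 0.041) and LOXL4 (1.97 ± 0.11) were higher, and so was COL5A2 (1.06 ± 0.054). THBS1, the matricellular thrombospondin, stood at 518, 520.4 and 506 CPM with TP-472 and 1270.5, 1278 and 1280.1 CPM with JQ-1 (-1.31 ± 0.027, edgeR adjusted p = 1.5e-17), and LAMB2 (-0.96 ± 0.031) and the collagen hydroxylase P4HA1 (-0.89 ± 0.045) were lower too. COL1A1 read -0.25 ± 0.11, a call lost with DESeq2 and without any single library but JQ-1 replicate 1 (edgeR adjusted p from 0.058 to 0.14). The untreated libraries read 123.3, 113 and 119 CPM for LOX, above both groups. Integrins showed 8 of 16 higher and 6 lower: the vitronectin receptor chain ITGB3 stood at 33.7, 34.4 and 32.5 CPM against 12.6, 13 and 12.8 CPM (1.39 ± 0.052) and ITGB4 read 1.53 ± 0.18, while the laminin receptor chain ITGA3 (1013, 1053 and 1021 against 1919, 1970.2 and 1978 CPM, -0.93 ± 0.027) and the collagen receptor chains ITGA2 (-0.61 ± 0.042) and ITGA1 (-0.51 ± 0.062) were lower. ITGAV did not pass (0.04 ± 0.038).

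Proteases and their inhibitors held 13 of 24 higher members and 8 lower, beside 38.8% and 38.4% of all genes. ADAM12 stood at 88.4, 86.1 and 81.8 CPM with TP-472 and 24.2, 21.4 and 20.7 CPM with JQ-1 (1.95 ± 0.051), the inhibitor TIMP1 at 53.3, 60.2 and 59.9 CPM against 22.9, 19.1 and 19.7 CPM (1.49 ± 0.062), and ADAM19 read 1.41 ± 0.038. The urokinase gene PLAU stood at 5.46, 5.75 and 5.56 CPM with TP-472, 2.90, 3.23 and 3.22 CPM in untreated cells and 1.67, 1.65 and 1.59 CPM with JQ-1, with no overlap between neighbours (1.77 ± 0.13 for TP-472 minus JQ-1). The membrane-type metalloproteases MMP17 (-1.37 ± 0.079) and MMP15 (-1.07 ± 0.047) were lower. In the TGF-beta pathway 12 of 24 were higher and 7 lower: the activin chain INHBA stood at 269.5, 279 and 282 CPM against 112, 109.6 and 113 CPM (1.31 ± 0.03), the latency proteins LTBP2 (1.17 ± 0.04) and LTBP1 (0.92 ± 0.039) were higher, and ID2 (-1.23 ± 0.087) and the SMAD repressor SKI (-0.90 ± 0.034) were lower.

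Of 20 YAP and TEAD genes 12 were lower with TP-472 and 6 higher, where 38.4% and 38.8% of all genes were, with a median of -0.21. The target CYR61 stood at 668, 684 and 686 CPM with TP-472 and 2309, 2238 and 2281 CPM with JQ-1 (-1.74 ± 0.027, edgeR adjusted p = 6.3e-19), and ANKRD1 (-1.16 ± 0.12), AMOTL2 (-0.86 ± 0.028) and CTGF (-0.49 ± 0.029) were lower. YAP1 itself went the other way (65.4, 62.6 and 63.5 against 35, 34.8 and 34.9 CPM, 0.87 ± 0.038). AP-1 genes split 6 higher and 6 lower: JUND (143, 148 and 149.9 against 382, 396 and 381 CPM, -1.39 ± 0.03), JUNB (-1.1 ± 0.034) and FOSL2 (-1.05 ± 0.032) were lower, while BATF3 (1.64 ± 0.17), MAFF (1.2 ± 0.04) and FOSB (0.93 ± 0.13) were higher. Among 20 MAPK output and feedback genes 12 were higher and 5 lower, with ETV4 (1.36 ± 0.046) and PHLDA1 (750.5, 719 and 730.3 against 404, 399 and 405 CPM, 0.86 ± 0.028) higher, EGR1 (-1.12 ± 0.12) and DUSP4 (-0.40 ± 0.033) lower and DUSP6 not past the threshold (72.8, 65.6 and 67.1 against 69.6, 73.6 and 66.9 CPM). Of 22 receptor tyrosine kinases 11 were higher and 8 lower. The collagen receptor DDR1 (65.7, 66.9 and 63.2 against 19.7, 21.6 and 20.9 CPM, 1.66 ± 0.045), TYRO3 (1.45 ± 0.054) and PDGFRB (2.43 ± 0.18) were higher and IGF1R was lower (30.8, 29.6 and 27.4 against 60.1, 62.7 and 63.6 CPM, -1.08 ± 0.045).

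The libraries carry the profile of a line with low pigment genes. TYR had no count in the 6 libraries, and MLANA, PMEL, DCT and S100B had at most 16 counts in any library, while SOX10 stood at 403, 413 and 399.6 CPM with TP-472 and 579.8, 593 and 579 CPM with JQ-1. Melanoma cells in this state are known to express NGFR, EGFR and cytokines. Of 20 melanocyte genes 11 were tested, 6 higher and 2 lower: the melanosome transport genes RAB27A (47.9, 48.7 and 48.4 against 13.2, 15.3 and 15.1 CPM, 1.74 ± 0.053) and RAB38 (1.07 ± 0.064) were higher, the lineage factors MITF (11.5, 11.5 and 11.9 against 18.4, 18.2 and 18.7 CPM, -0.66 ± 0.061) and SOX10 (-0.53 ± 0.028) lower. Of 17 neural crest and EMT regulators 9 were higher and 6 lower, where 38.8% and 38.4% of all genes were. NGFR, the crest receptor, stood at 111, 115 and 111 CPM against 293, 301 and 299 CPM (-1.41 ± 0.029, edgeR adjusted p = 2e-17) and TFAP2A read -1.19 ± 0.044, whereas SNAI2 (45.9, 44 and 44 against 18.1, 18.2 and 16.8 CPM, 1.33 ± 0.048), FOXD3 (1.36 ± 0.15) and PAX3 (0.77 ± 0.071) were higher. EGFR differed by -0.12, a call lost when all 21 libraries were fitted (edgeR adjusted p = 0.39) and without JQ-1 replicate 3 (0.085) or TP-472 replicate 3 (0.19), and read 0.023 under total-count scaling.

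Most listed markers of other cell types had few or no counts in both groups. Keratins outside these lists, such as KRT15 and KRT80, were well detected and are given below. Of 10 blood cell markers 6 had no count, PTPRC and CD3E among them, and the summed level of the list (149.5 to 161 CPM with TP-472, 150.3 to 156 with JQ-1) came almost wholly from CD68, which did not pass. The only other tested member, the monocyte receptor CD14, was higher with TP-472 at a trace level (0.433, 0.525 and 0.802 against 0.108, 0.110 and 0.0337 CPM, 2.7 ± 0.48). Keratinocyte markers summed to 28.1 to 31.7 CPM with TP-472 and 20.6 to 24.1 with JQ-1, mostly KRT10, with KRT1 and LOR at 0 counts. Fibroblast markers summed to 13.3 to 13.9 CPM and 7.64 to 8.27 CPM, with DCN and COL3A1 at 0 counts, and held PDGFRB and LUM (2.14 ± 0.16), both higher with TP-472. Endothelial markers summed to at most 1.68 CPM, and neither of the 2 tested passed.

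The largest differences outside the lists were mostly in genes almost silent with JQ-1. EHF, an epithelial ETS factor, stood at 20.3, 19.4 and 20.3 CPM with TP-472 and 0.243, 0.0551 and 0.135 CPM with JQ-1 (7.07 ± 0.17, edgeR adjusted p = 9.4e-17), 2544 counts against 15. DMBT1, a secreted scavenger protein, stood at 32.9, 35.1 and 34.8 CPM against 0.648, 0.358 and 0.270 CPM (6.28 ± 0.12), and the chemokine receptor CCR1 at 16.3, 14.3 and 14.5 CPM against 0.216, 0.220 and 0.202 CPM (6.11 ± 0.15). PPARG, the nuclear receptor of fat cells, stood at 10.8, 10.5 and 12.3 CPM against 0.459, 0.275 and 0.270 CPM (5.03 ± 0.17, edgeR adjusted p = 7.7e-15). MYPN (5.36 ± 0.29), MYH16 (4.52 ± 0.26), GBP4 (4.47 ± 0.31) and S1PR4 (4.26 ± 0.31) complete the 12 with CSF3, CSF2, GBP1 and CCL2. The untreated libraries were higher still for EHF (33.5, 29.3 and 31.6 CPM) and CCR1 (23.2, 25.6 and 25.1 CPM) and at the TP-472 level for PPARG (9.75, 12.1 and 10.8 CPM). In 6 genes no JQ-1 library had a count. The bradykinin receptor BDKRB2 had the most, at 1.76, 2.08 and 2.22 CPM with TP-472, 258 counts in all, which is at least 69.5-fold higher against a floor of 3 counts over the group. It was followed by ABHD14A-ACY1, a read-through transcript with fractional counts (181), FAM172BP (51), CACNA1S (49), RTP4 (42) and ERMN (40). These 6 were picked for their zero counts, after the values were seen.

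Among the genes whose TP-472 level lay furthest below the JQ-1 level, a pair was abundant with JQ-1. NEAT1, the long noncoding RNA that builds paraspeckles, stood at 148, 144 and 148 CPM with TP-472 and 1545, 1469 and 1565 CPM with JQ-1 (-3.38 ± 0.033, edgeR adjusted p = 4.3e-22). PEG10, an imprinted gene of retrotransposon origin, stood at 36.5, 36.1 and 35.9 CPM against 447, 451 and 461 CPM (-3.65 ± 0.032, edgeR adjusted p = 3.7e-22). Its exons overlap SGCE on the other strand. KIAA1683 stood at 0.255, 0.646 and 0.595 CPM against 10.5, 10.8 and 9.89 CPM (-4.35 ± 0.17), EFR3B at 2.29, 3.01 and 1.73 CPM against 30.4, 28.6 and 29.7 CPM (-3.63 ± 0.11) and the lipid transporter ABCA3 at 0.561, 0.343 and 0.595 CPM against 5.08, 5.34 and 5.37 CPM (-3.42 ± 0.19). The reductase gene DHRS2 (-3.22 ± 0.14) and the ephrin receptor EPHA7 (-3.21 ± 0.22) followed. Of the 12 genes named for the lowest fold changes, 5 were histone genes of 1 cluster. These 5 make 3 measurements, since 2 pairs hold identical values. The untreated libraries read 40, 38.2 and 35.6 CPM for PEG10 and 169, 156 and 156 CPM for NEAT1, near the TP-472 libraries.

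Genes with large differences also lay side by side. Ordered by position among tested genes (GENCODE 29 positions on GRCh38), 13 runs of at least 4 neighbours were each called and at least 2-fold apart in 1 direction, 11 higher with TP-472 and 2 lower. These runs were listed after the values were seen and carry no test, and neighbours with similar sequence can share reads. The 2 lower runs are the histone clusters at chr1:149782689-149887364, with 8 genes, and chr6:26114873-26217483, with 5. The 8 include both copies of the 2 identical histone pairs. On chromosome 1 the guanylate-binding genes at chr1:89006666-89272804 run from 1.69 for GBP2 to 4.71 for GBP1. At chr22:38982347-39087743 the 5 tested cytidine deaminase genes APOBEC3B (59.6, 59.5 and 61.7 against 10.9, 10.9 and 10.3 CPM, 2.49 ± 0.047), APOBEC3C (1.78 ± 0.056), APOBEC3D, APOBEC3F and APOBEC3G (2.23 ± 0.24) were all higher with TP-472. The class II antigen genes at chr6:32190766-32647062 form a run of 7 with GPSM3 and NOTCH4, in which HLA-DRA stood at 551, 567 and 587 CPM against 163, 162 and 161 CPM (1.81 ± 0.03, edgeR adjusted p = 1.1e-18), HLA-DRB1 read 1.16 ± 0.03 and HLA-DQA1 2.31 ± 0.075.

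Keratin and developmental clusters made up most other runs. At chr12:52168996-52309163 the keratins KRT80 (199, 207 and 196 against 42.2, 40.1 and 41.8 CPM, 2.28 ± 0.035), KRT81 (208, 209.8 and 220.1 against 71, 67.8 and 70.5 CPM, 1.61 ± 0.034), KRT86 and KRT7 were higher with TP-472, and at chr17:41059240-41522529 KRT15 (96.8, 104 and 106 against 17.7, 16.1 and 17.2 CPM, 2.59 ± 0.048) with KRT32, KRT34 and 2 keratin-associated genes. The homeobox genes HOXC8 (7.75, 7.43 and 8.85 against 1.59, 1.79 and 1.65 CPM, 2.25 ± 0.12), HOXC9 (1.89 ± 0.12) and HOXC6 (1.15 ± 0.10) with HOXC-AS1 lie at chr12:53990624-54030823. Serpin genes SERPINA1 (2.41 ± 0.15), SERPINA5 (40.9, 42 and 44.2 against 10.8, 12.4 and 11.1 CPM, 1.89 ± 0.057) and SERPINA3 lie with GSC at chr14:94376747-94770230, and IL1A and IL1B with PSD4 and PAX8-AS1 at chr2:112773915-113276581. The protocadherin runs on chromosome 5, 5 PCDHB genes from 1.08 for PCDHB9 to 3.51 for PCDHB7 and 11 PCDHG genes in 2 runs, are the least certain, since PCDHG transcripts share their last exons. PCDHGA2 and PCDHGB6 lost their call without JQ-1 replicate 1 or 2 or TP-472 replicate 1 (edgeR adjusted p from 0.064 to 0.19), and PCDHGB1 without JQ-1 replicate 3 or TP-472 replicate 3 (0.063 and 0.075).

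**Figure D5:**
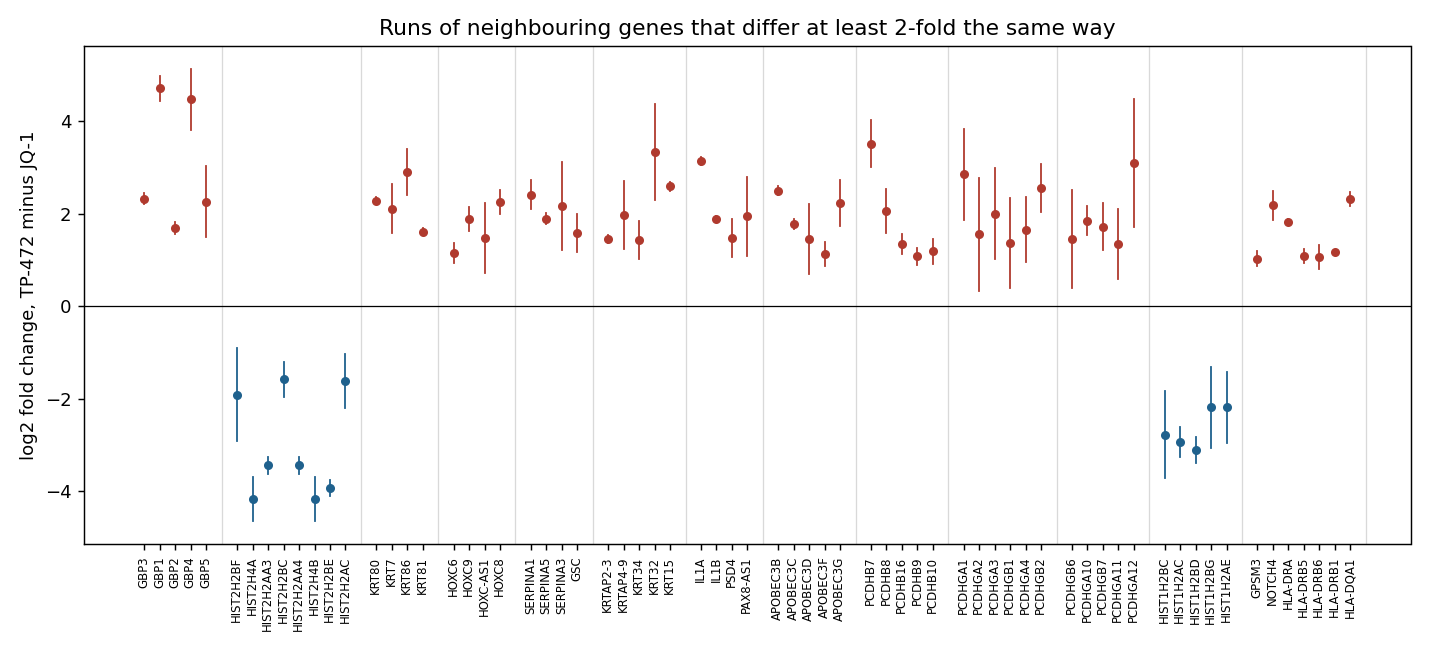
Log2 fold change (TP-472 minus JQ-1) with its 95% interval for the 67 genes of the 13 runs, in the order of their positions, with gaps between runs. Red points are higher with TP-472 and blue points lower, and only the 2 histone runs lie below 0.

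Base composition was compared by library. The slope of log2 level on GC content, per 10 percentage points, averaged 0.0029 ± 0.028 (SD) in the TP-472 libraries and -0.0029 ± 0.0045 in the JQ-1 libraries, a difference of 0.0058 (two-sided exact permutation test, p = 0.9, where 3 against 3 cannot go below 0.1). The spread came from TP-472 replicate 1, at -0.029 against 0.020 and 0.018 in the other TP-472 libraries. Without it the difference was 0.022 and the groups did not overlap (exact permutation p = 0.1, the smallest that 2 against 3 can give). Across the 13560 tested genes with a known GC content, the Spearman correlation of the fold change with GC was -0.0083, given as a description since genes are not independent replicates. Genes at least 4-fold lower with TP-472 had a median gene span of 14.5 kb against 31.9 kb over all genes and 31.4 kb for those at least 4-fold higher. The median transcript length of these 3 sets was 2757, 3615 and 3450.5 bases in the same order, with gene models found for 87.1 to 94.9% of each set.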

How the data were processed

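Poly-A selected RNA-seq was available as 1 table of expected counts per gene for 21 libraries. The authors deposited these expected counts, made with Bowtie2 2.1.0 and RSEM 1.2.15 on hg38, per the submitters' processing notes. Annotation and strand setting were not given in the sources used here. RSEM divides reads that fit several genes, so near-identical copies have fractional values. Count columns were matched to libraries by title. Libraries were grouped by their treatment labels, and the 3 TP-472 and 3 JQ-1 libraries were fitted on their own.

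Expected counts were rounded, filtered with filterByExpr (minimum count 10, minimum total 15), scaled by TMM and tested with edgeR 4.0.16 (quasi-likelihood, group as the only term, R 4.3.3) with Benjamini-Hochberg adjustment over the 14444 genes tested. Untreated libraries give levels on the same scale and entered only the alternative fit of all 21 libraries. On simulated counts with 50 changed genes at each size (14298 genes), 66% were recovered at 1.2-fold, 70% at 1.5-fold, 86% at 2-fold and 100% at 4-fold. Of the unchanged genes 11 were called. Few genes changed in the simulation, whereas 77.2% were called in the data, so these rates check the procedure and do not carry over to this contrast. Gene positions, lengths and GC come from GENCODE 29, promoters from RefSeq.

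The 37 gene lists and the genes in them (805 genes) were chosen with earlier results of these data known. Genes were named by rank. The 12 largest differences in each direction came from called genes of 3 CPM or more in the higher group, without overlap between groups. Per list, the 4 largest came from called genes of 3 CPM or more in the higher group. Up to 3 called members of opposite direction and the tested member with the smallest difference were named without these limits. The compounds' targets and 6 genes of equal level (at least 10 CPM) were added. Other genes, given for their known role, for a printed promoter or as neighbours, were chosen after their values were seen. Alternatives covered DESeq2 1.42.0, other scalings and filters, a GC correction, a replicate block, wider fits, thinning, a fold threshold and omission of each library. Single results for some genes are not reported here, though counts over lists include them.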

Additional observations from a re-analysis of the deposited data

How the results depend on the processing

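The count of 11153 called genes ranged from 8763 (of 10927 genes, with fractional counts left out) to 11706 (of 20075, without the filter) over DESeq2, other scalings and filters, wider fits and thinning. With each library left out it ranged from 10779 to 10968. Testing against a 1.5-fold threshold (edgeR's glmTreat) left 3803 of the 14444 genes, 2293 higher and 1510 lower with TP-472. It left 258 of the 805 list genes, untested members included in the 805. Among genes called both here and under an alternative, none had opposite signs except 4 under total-count scaling. With it the median over all genes went from -0.0045 to 0.13 and the share of calls that were higher from 50.2% to 62.3%. Under it the difference turned positive for RELA (0.11), PDIA3 (0.018), CDK13 (0.11), MXI1 (0.12), RRP12 (0.14), GINS4 (0.0087), RB1 (0.052), BAG3 (0.0038), BCL2L1 (0.12), SESN2 (0.12), EGFR (0.023), TEAD4 (0.13), FDFT1 (0.13), HSP90B1 (0.12) and EFTUD2 (0.14), and for the cholesterol synthesis median (0.12). Other medians near 0 that changed sign were those of keratinocyte markers (-0.12 without the filter), SWI/SNF subunits (-0.0055 with fractional counts left out) and fibroblast markers (-0.054 without JQ-1 replicate 2, in a range up to 0.52 over the single libraries left out). The difference in GC slope read -0.0020 over genes with at least 10 CPM (exact permutation p = 1) and from -0.0026 to 0.022 with each library left out (the highest without TP-472 replicate 1, exact permutation p = 0.1). The cause was not tested.

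Of the 346 genes followed, 76 lost their call under the 1.5-fold threshold. With their sign kept, 13 lost their call under at least 1 of the other alternatives, and 17 gained one. Changes of sign were counted apart, for 15 genes, all under total-count scaling, and some of these lost or gained a call too. Deviations of same-numbered libraries correlated at 0.0015, -0.039 and -0.073, and those of differently numbered libraries from -0.053 to 0.091. No pairing by replicate number was seen in these values. The labels do not say whether same-numbered libraries were prepared together. A fit with a replicate block called 11040 genes, or 11099 with the GC trend removed too, and under the block CCND1, RB1 and COL1A1 lost their call (edgeR adjusted p = 0.072, 0.064 and 0.057). Depth limits genes with few counts, such as those without a count in any JQ-1 library.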
